A study of Mus musculus with 2 samples.

Results

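The genes described here encode the machinery with which cells pump acid and digest bone: the vacuolar proton pump (V-ATPase), its accessory proteins, the ion transporters and sorting protein that serve it, and the enzymes cathepsin K and tartrate-resistant acid phosphatase. They were taken by symbol, as all genes that start with Atp6v0 or Atp6v1 (pseudogenes left out) together with Tcirg1, Atp6ap1, Atp6ap2, Clcn7, Ostm1, Snx10, Slc4a2, Car2, Ctsk and Acp5. This gave 33 of the 57126 named genes in the files. Of the 33, 23 encode pump subunits, 10 of the membrane sector V0 and 13 of the cytosolic sector V1. Atp6v1fnb is only a genomic neighbour of a subunit gene, and it was not counted as a subunit.

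The V-ATPase splits ATP in its V1 sector and drives protons through the V0 sector. Most cells use it to acidify lysosomes. Osteoclasts, the multinucleated cells that resorb bone, place it in the ruffled border that faces the bone, where the acid dissolves mineral and cathepsin K degrades collagen. Several subunits exist as paralogs, and the a3 form (Tcirg1) and the d2 form (Atp6v0d2) are known from the osteoclast pump. Loss of TCIRG1, CLCN7, OSTM1, SNX10 or CA2 is known to cause osteopetrosis, a disease of dense bone.

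The data are 2 single-cell RNA libraries from alveolar bone, the bone that holds the teeth, of C57BL/6J mice aged 6 to 8 weeks. Per the labels, 12 mice formed a group with a first molar pulled for 7 days by a coil spring (force 25 g) and a control group whose spring exerted no force. Each group's bone, from no more than 1 mm around the socket, was pooled over 6 mice, digested for 60 min at 37 C and cleared of red cells by lysis. The labels do not say which library came from which group, so the libraries are called library 1 and library 2, no comparison of force with control was made, and no test was run.

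Library 1 gave 9497 cells with a median of 3203 unique molecular identifiers (UMIs, counts of single captured RNA molecules), and library 2 gave 11782 cells with a median of 4395.5. The libraries shared 71 cell barcodes, close to the 63.2 that barcodes drawn at random would share. Cells fell into 24 classes, 21 of them named by fixed marker genes and the others by their leading genes. A level is the summed UMIs of a gene per 1000000 UMIs of a class (CPM), given for library 1 and then library 2, and each interval is a 95% limit for counting error only. Levels were compared between classes for the same gene. Paralog genes of 1 subunit were set side by side only as shares of their summed UMIs, which are not scaled for transcript length. A gene counted as measured if some class held at least 20 of its UMIs in each library.

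The class on which most values turn was small. Osteoclast-like cells numbered 49 in library 1 and 35 in library 2, with median depths of 3691 and 3764 UMIs, and over both libraries together all 8 osteoclast markers were raised at least 3-fold in them. Itgb3 was the weakest of these in library 1, at 143 CPM against 79.6 in all other cells. None of the markers is one of the 33 genes, and the 33 genes were left out of the clustering, although Acp5, Atp6v0d2 and Ctsk turned out to be among the 10 leading genes of the cluster. Most markers of other cells were low there, but some were not. Csf1r, which is on the monocyte list and encodes a receptor that osteoclasts also use, stood at 683 and 1182 CPM against 40.2 and 36.8 in all other cells, and made up most of the 800 and 1229 CPM of the 8 monocyte markers (6391 and 6781 in their own class). Sdc1, from the plasma cell list, stood at 306 and 328 against 42.3 and 27.9. The 8 macrophage markers summed to 46.5 and 13.9 CPM, against 8870 and 9713 in macrophage-like cells, with 2 and 3 of them at 0. The 8 mature neutrophil markers summed to 2735 and 1376 CPM, against 127815 and 221506 in their own class, with none at 0, and the part of such RNA in the results was not tested. The largest osteoclast-like cell held 10.7% and 12.7% of the UMIs of the class.

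In the clustered cells, most of the machinery was highest in osteoclast-like cells. Of the 33 genes, 27 were measured, and 22 of these peaked in the same class in library 1 and library 2 (81.5%, where 53.3% of all 13858 measured genes did). Osteoclast-like cells were that class for 19 (70.4%, where 3.9% of all measured genes were highest there in both libraries). The 19 comprise 12 subunit genes, both accessory genes, Snx10, Slc4a2, Clcn7, Ctsk and Acp5. For 12 of the 27 the level in the top class was 2-fold or more that of the next, in library 1 and in library 2 (44.4%, where 9.02% of all measured genes did), and in 11 of these it was the osteoclast-like class, with Car2 in erythroid-like cells as the exception. The count of 19 depended on how osteoclast-like cells were defined. When they were taken cell by cell as all cells with a UMI of at least 3 osteoclast markers, the count was 8, and the count of genes 2-fold above the next class was 4 instead of 12. The shares of all genes under that definition were not computed, so whether other genes fell alike is not known. Of the 123 and 112 cells so taken, 35 and 26 were in the class described. The others lay in many classes, most often immature neutrophil-like (30 cells) and fibroblast- or periodontal ligament-like (23 cells).

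**Figure D1:**
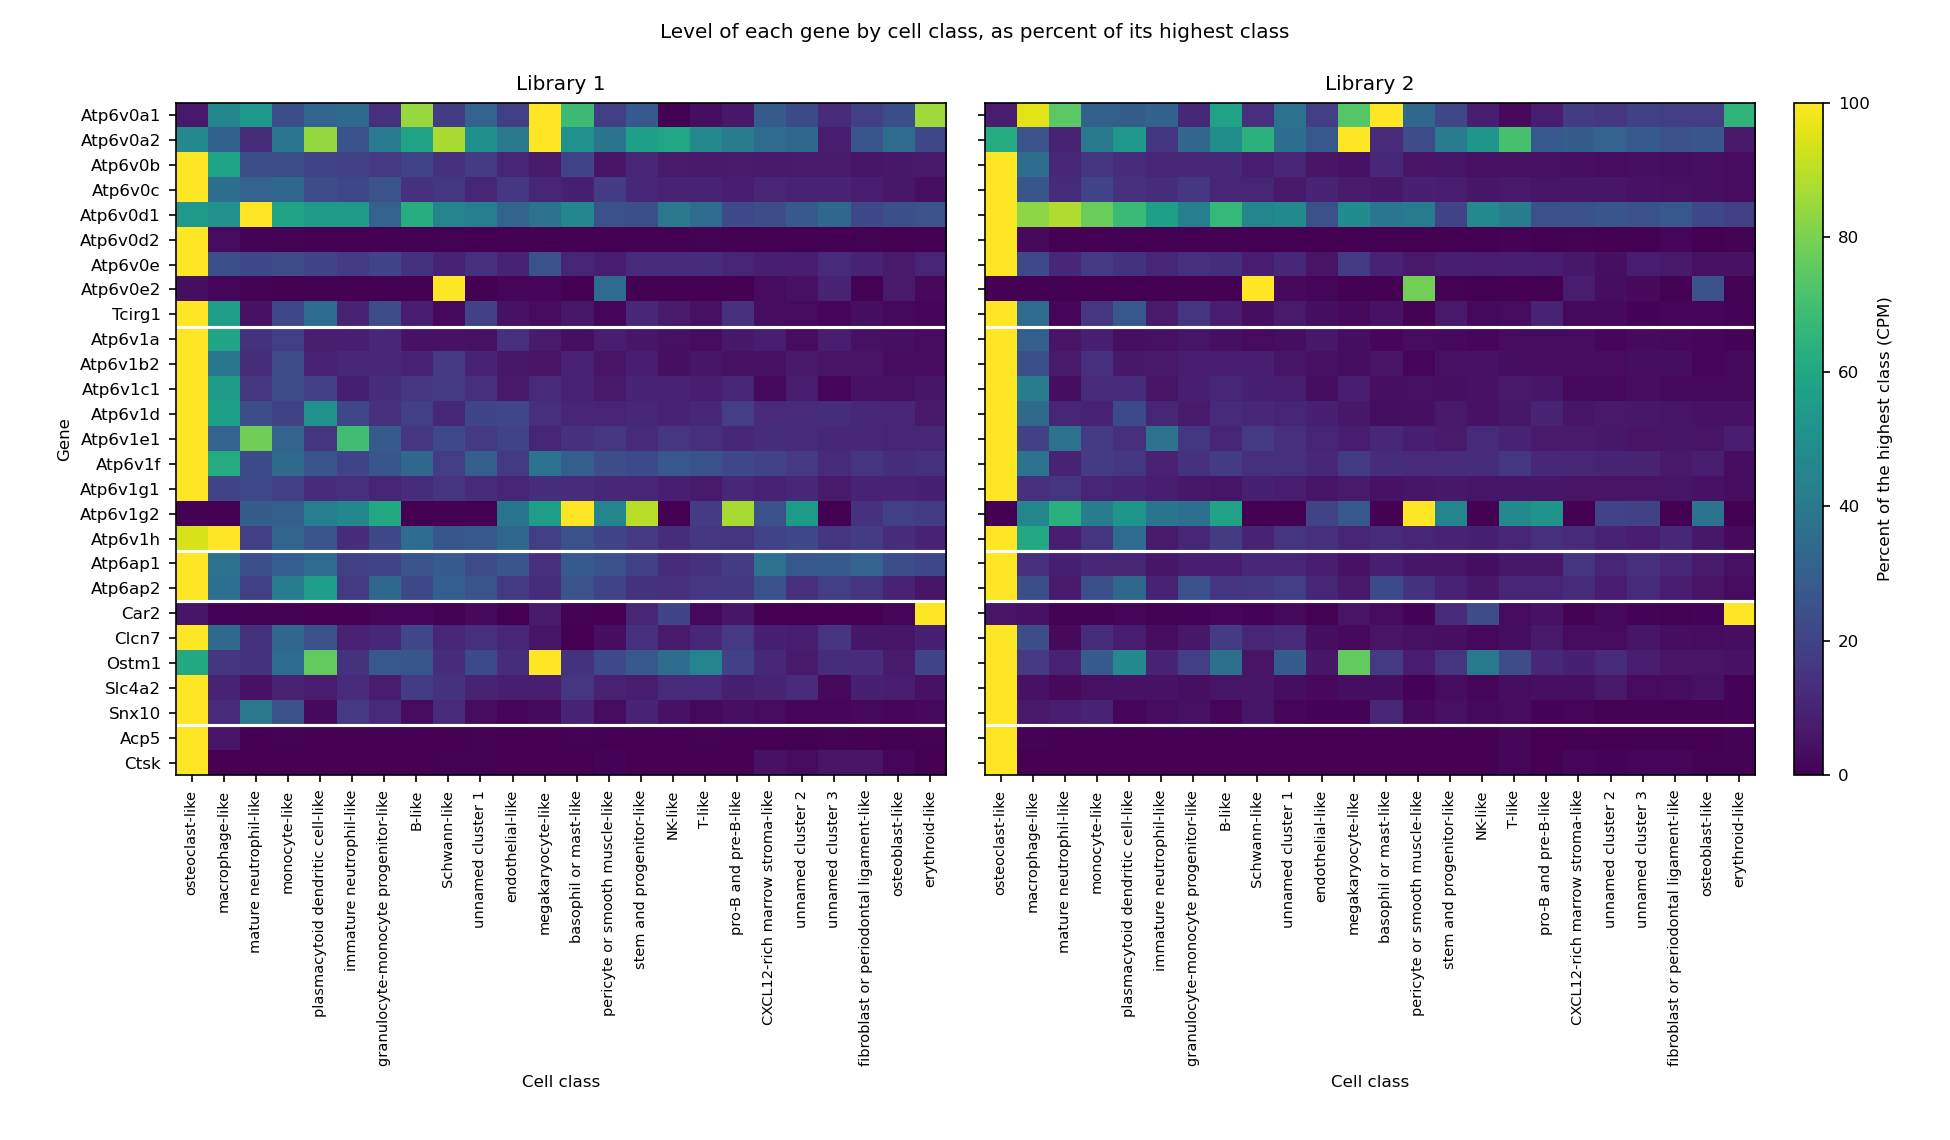
Level of each of the 27 measured genes (rows) in the 24 cell classes (columns) of library 1 (left) and library 2 (right), in CPM as a percent of the gene's highest class in that library; white lines divide V0 subunits, V1 subunits, accessory proteins, ion transport and traffic, and secreted enzymes. Most rows are brightest in the osteoclast-like column at the left, while Atp6v0a1, Atp6v0a2, Atp6v0e2, Atp6v1g2 and Car2 peak elsewhere in both libraries and Atp6v0d1, Atp6v1h and Ostm1 do so in library 1.

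A group of these genes carries, near the start of transcription, the letters bound by the MiT factors (MITF, TFEB, TFE3 and TFEC), which control lysosomal genes and, in osteoclasts, resorption genes. The RefSeq promoter table (GRCm38.p6) gave windows from 250 bases before to 50 after the start for 26 of the 33 genes, and Atp6v1h, Car2, Atp6v0d2, Atp6v1g1, Atp6v0a2, Atp6v1b2 and Atp6v1c1 had none. The E-box CACGTG, searched on both strands, stood in a window of 5 of the 26 (19.2%), against 8.09% of all 27025 genes in the table. Its longer form TCACGTGA, which contains the E-box and is known from lysosomal genes, stood in 4 of the 26 (15.4%), against 1.12% of all genes. The M-box form TCACATGA stood in 2 of the 26 (7.69%), against 1.15%. A gene counted if any of its windows held the letters. The 26 genes had 37 windows and the 27025 genes 32851, so the 26 had more windows per gene. Both genes with the M-box form, Acp5 and Atp6v0c, had several windows. Of all windows, 0.986% held that form. These are counts of letters and not of bound sites.

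The 7 genes with such letters are printed as 30 bases each, 5′ to 3′ on the strand of the gene, with the letters in capitals.
Atp6v1a: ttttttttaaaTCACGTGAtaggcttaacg
Clcn7: CACGTGggcaccgatgatagaTCACGTGAg
Atp6v0d1: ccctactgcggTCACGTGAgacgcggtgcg
Atp6v0e: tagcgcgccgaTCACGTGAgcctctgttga
Atp6v0b: ggtCACGTGgggtcggcgcatCACGTGcgc
Acp5: aagtccagtgcTCACATGAcccaaggggag
Atp6v0c: gcggggacagaTCATGTGAcgcgagcgcgg
The Atp6v1a stretch lies at chr16:44139373-44139402 on the minus strand, with the letters starting 132 bases before the start, and the Clcn7 stretch, from 1 of 2 starts of that gene, at chr17:25133376-25133405 on the plus strand, with an E-box starting 15 bases before the start and the longer form after it. The Atp6v0d1 stretch at chr8:105566050-105566079 (minus) and the Atp6v0e stretch at chr17:26676387-26676416 (plus) span the start itself. Atp6v0b, at chr4:117887339-117887368 (minus), holds the E-box at 2 places, the first of them 36 bases before the start. The Acp5 stretch, at chr9:22130671-22130700 (minus), belongs to 1 of 3 starts of that gene and its letters start 91 bases before it. The Atp6v0c stretch, at chr17:24169449-24169478 (minus), also belongs to 1 of 3 starts, 17 bases before it, and shows the M-box form on the opposite strand. Tcirg1, Ctsk, Snx10, Slc4a2, Atp6v1d, Atp6v1e1, Atp6v1f, Atp6ap1 and Atp6ap2 were highest in osteoclast-like cells in both libraries but had windows without any of these letters. This says only that the letters are not in these windows.

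Among the V0 subunit genes, Atp6v0d2 had the steepest pattern. It encodes d2, a form of the stalk subunit that joins V0 to V1, and stood at 1134 CPM (1044 to 1230) in library 1 and 1891 (1780 to 2007) in library 2 in osteoclast-like cells. Macrophage-like cells came next with 31.0 (21.4 to 43.6) and 45.9 (35.1 to 59.0), a ratio of 36.6 (25.7 to 53.6) and 41.2 (31.8 to 54.2). The middle class stood at 1.09 and 2.47 CPM, so most classes held a few UMIs or none. Barcodes with 10 to 100 UMIs, which hold mostly free RNA, carried 14.6 and 23.7 CPM of it.

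Tcirg1, which encodes a3, the form of the membrane subunit a that osteoclasts use, was spread more widely. It stood at 718 CPM (647 to 795) and 860 (786 to 939) in osteoclast-like cells. The level in macrophage-like cells was 403 and 301, so the ratio was 1.78 (1.55 to 2.05) in library 1 and 2.85 (2.50 to 3.26) in library 2. Plasmacytoid dendritic cell-like cells followed in both libraries with 261 and 233 CPM.

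The other V0 genes highest in osteoclast-like cells encode parts of the proton-carrying ring and a small partner. Atp6v0c, the main ring subunit, stood at 3630 (3467 to 3798) and 5832 (5637 to 6033), 2.76 and 3.74 times the level in macrophage-like cells, which came next. It has named pseudogenes, whose 17 and 34 UMIs may not hold all of their reads, so its counts are uncertain. Atp6v0b, another ring subunit, stood at 1657 and 2442 against 958 and 879 in macrophage-like cells, and Atp6v0e, the small subunit e, at 1096 and 1745 against 266 and 388. Of these 3 genes, Atp6v0b in library 1 was the 1 case under 2-fold, at 1.73 (1.58 to 1.90).

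For 4 measured V0 genes osteoclast-like cells were not the top class of both libraries. Atp6v0a1, the common a1 form of subunit a, had only 3 and 4 UMIs there (5.81 and 6.93 CPM), and the 3 came from 1 cell. The level in macrophage-like cells was 39.5 and 84.4 CPM, which put osteoclast-like cells at 0.147 (0.0292 to 0.460) and 0.0822 (0.0220 to 0.216) of it. Atp6v0a1 had no shared highest class, with megakaryocyte-like cells on top in library 1 (86.4) and basophil- or mast-like cells in library 2 (87.8). Atp6v0a2, the a2 form found in Golgi membranes, peaked in megakaryocyte-like cells, with 69.9 CPM (57.2 to 84.5) in library 1 and 76.0 (64.9 to 88.4) in library 2. Next came Schwann-like cells in library 1, at 60.95 on 8 UMIs (26.3 to 120), and T-like cells in library 2, at 53.9 (39.5 to 71.9), with intervals that overlap those of megakaryocyte-like cells. Atp6v0d1, the common d1 form, was highest in mature neutrophil-like cells in library 1 (255) and in osteoclast-like cells in library 2 (248, against 218 in mature neutrophil-like cells). Atp6v0e2 rested on few counts, with 7 and 10 UMIs in Schwann-like cells (53.3 and 40.7 CPM) while the class of pericytes or smooth muscle had 7 and 13.

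Of the 13 V1 genes, 7 were highest in osteoclast-like cells in both libraries. Atp6v1a, the catalytic subunit A, stood at 1289 (1193 to 1391) and 2553 (2424 to 2687) in osteoclast-like cells against 755 and 774 in macrophage-like cells. Atp6v1b2, the B2 form of the other subunit of the ATP-splitting ring, stood at 1047 and 1584 against 413 and 389. Atp6v1g1, a stalk subunit, had the widest gap to the next class of the V1 genes, with 989 (905 to 1079) and 1858 (1748 to 1973) against 219 and 277 in mature neutrophil-like cells.

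Another stalk gene, Atp6v1e1, was high in granulocytes as well. It stood at 860 and 1451 in osteoclast-like cells, while mature neutrophil-like cells held 673 and 543 and immature neutrophil-like cells 595 and 548. Atp6v1c1 (443 and 797), Atp6v1d (660 and 1156) and Atp6v1f (709 and 1440) were each next highest in macrophage-like cells, at ratios between 1.62 and 1.81 in library 1 and between 2.39 and 2.90 in library 2. Atp6v1h, a regulator of the ATP-splitting sector, was 267 (224 to 316) in osteoclast-like and 285 in macrophage-like cells of library 1, which overlap, and 510 (453 to 571) against 307 in library 2.

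Of the 6 genes that were not measured, 5 are V1 paralogs or neighbours and 1 is a V0 form. Atp6v1b1, the B1 form known from kidney, had 0 UMIs in all cells of both libraries. Atp6v1g3 had 1 UMI in each, Atp6v1e2 2 and 1, Atp6v1fnb 4 and 3, and Atp6v0a4, the a4 form also known from kidney, 24 and 34. Atp6v1c2 had 87 UMIs in library 1 and 17 in library 2, and in library 1 they lay mainly in osteoblast-like cells (45) and macrophage-like cells (29), which held 1 and 0 in library 2. Atp6v1g2 passed the minimum but reached at most 5.91 and 4.93 CPM in any class and had no UMI in osteoclast-like cells.

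Summed over the 23 subunit genes, the pump stood at 14678 CPM (14350 to 15012) in osteoclast-like cells of library 1 and 24420 (24019 to 24827) in library 2. Macrophage-like cells held 6174 and 6768, so the ratio was 2.38 and 3.61. Monocyte-like cells held 3736 and 3678, mature neutrophil-like cells 3785 and 2903, and plasmacytoid dendritic cell-like cells 3040 and 3182. Osteoblast-like cells, which build bone, were near the bottom with 1044 and 989, and erythroid-like cells were lowest with 986 and 828. The V0 genes alone gave 8414 and 13072 in osteoclast-like cells and the V1 genes 6265 and 11349, so both sectors were raised there. Osteoclast-like and macrophage-like cells were first and second in both libraries for each sector. With osteoclast-like cells defined cell by cell the summed level was 5405 and 7957, and at the higher clustering resolution 8246 and 12174.

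**Figure D2:**
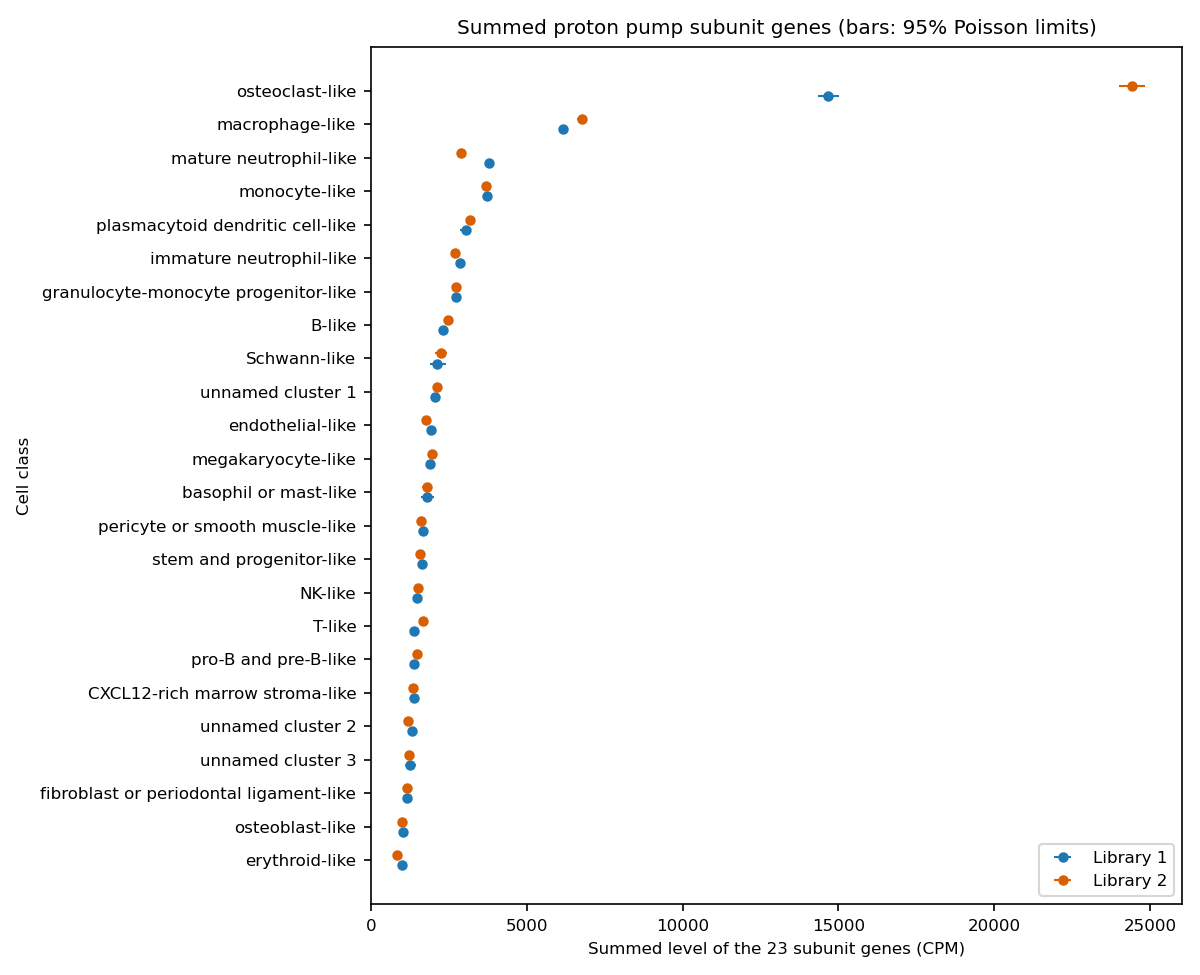
Summed level of the 23 pump subunit genes in CPM (horizontal axis) in each cell class (vertical axis) for library 1 (blue) and library 2 (orange), with exact 95% Poisson limits for counting error. Osteoclast-like cells stand apart at 14678 and 24420 CPM, macrophage-like cells follow at 6174 and 6768, and the remaining classes lie at or below 3785.

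Osteoclast-like cells also differed in which paralogs supplied the pump. Tcirg1 supplied 371 of 391 subunit a UMIs in library 1, or 94.9% (exact binomial interval 92.2 to 96.8), and 496 of 527 in library 2, or 94.1% (91.8 to 96.0). Atp6v0a2 supplied 4.35% and 5.12% and Atp6v0a1 0.767% and 0.759%. No UMI of Atp6v0a4 was seen, where the exact intervals reach 0.939% and 0.698%.

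In macrophage-like cells the share of Tcirg1 was 86.7% and 74.3%, and in granulocyte-monocyte progenitor-like cells 79.95% and 78.5%. Monocyte-like cells (76.0% and 70.0%), plasmacytoid dendritic cell-like cells (75.0% and 77.9%) and pro-B- and pre-B-like cells (72.1% and 73.9%) also drew most of their subunit a from it. Mature neutrophil-like cells, which descend from the same progenitors, drew 51.2% (46.3 to 56.1) and 73.5% (68.5 to 78.1) from Atp6v0a1. Erythroid-like cells drew 72.2% and 80.0% from Atp6v0a1, and megakaryocyte-like cells divided their UMIs between Atp6v0a1 (48.2% and 39.7%) and Atp6v0a2 (39.0% and 46.6%).

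For subunit d, whose forms are Atp6v0d1 and Atp6v0d2, osteoclast-like cells were the 1 class that drew most of it from Atp6v0d2. Atp6v0d2 supplied 586 of 657 subunit d UMIs in osteoclast-like cells of library 1, or 89.2% (86.6 to 91.5), and 1091 of 1234 in library 2, or 88.4% (86.5 to 90.1). In macrophage-like cells it supplied 19.3% (13.7 to 26.0) and 18.3% (14.3 to 22.8), and in monocyte-like cells 5.41% and 0.755%. Fibroblast- or periodontal ligament-like cells had a share of 12.5% and 29.1%. Their level of Atp6v0d2 was only 7.90 and 27.6 CPM, where free RNA carried 14.6 and 23.7 CPM. Erythroid-like cells had 0 of 62 UMIs in library 1 and 55 of 316 (17.4%) in library 2, at 9.96 CPM and thus under the level in free RNA. The level of Atp6v0d1 itself was 137 CPM in osteoclast-like and 130 in macrophage-like cells of library 1, and 248 and 206 in library 2, with ratio intervals of 0.784 to 1.42 and 0.978 to 1.48 that include 1.

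**Figure D3:**
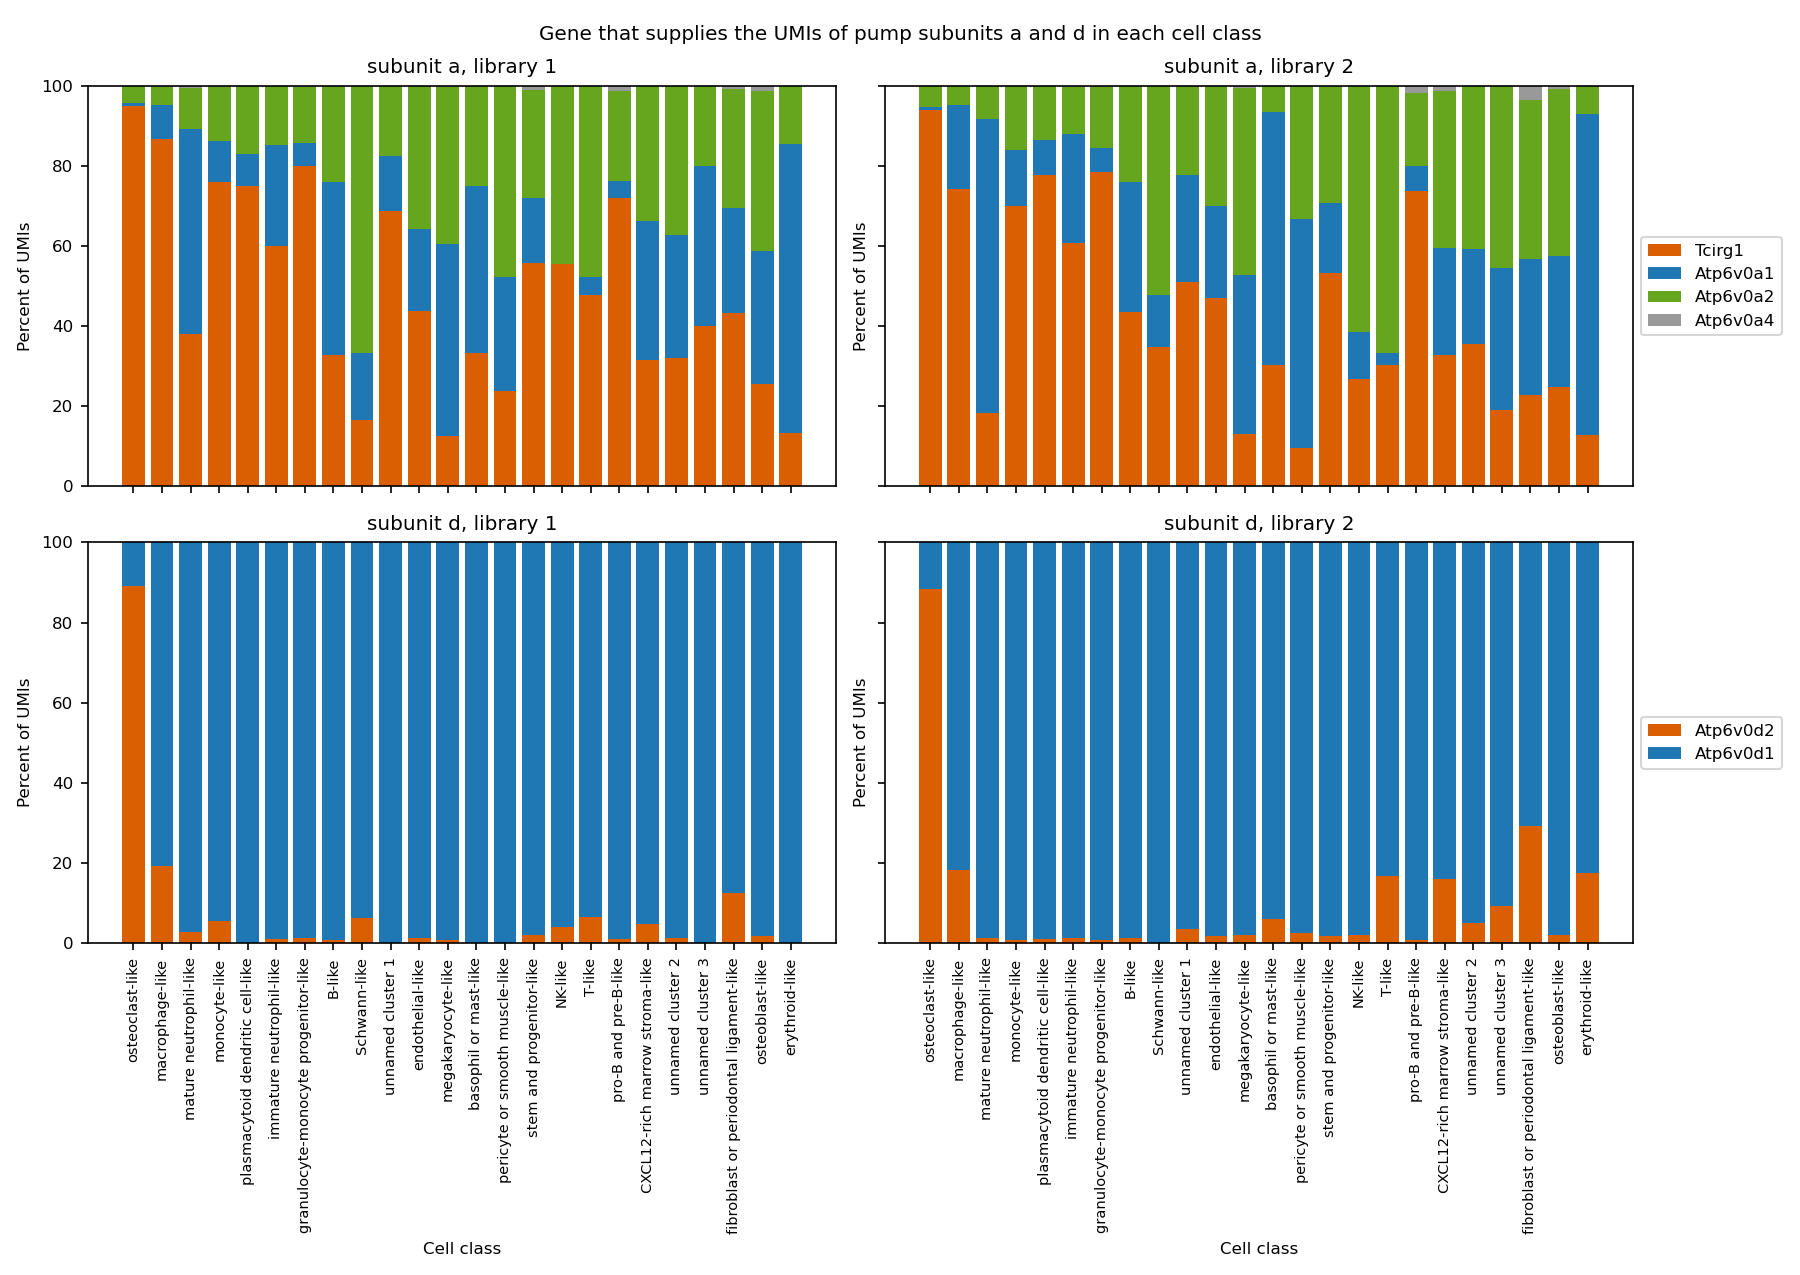
Percent of the UMIs of pump subunit a (upper panels) and subunit d (lower panels) that come from each paralog gene, by cell class, in library 1 (left) and library 2 (right). Tcirg1 fills 94.9% and 94.1% of the subunit a bar and Atp6v0d2 89.2% and 88.4% of the subunit d bar in osteoclast-like cells, and Atp6v0d1 fills most of the subunit d bar in every other class.

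For subunits B, E and G, osteoclast-like cells showed a single form, but the other forms were rare in all cells. Over all cells Atp6v1b1 had 0 UMIs, Atp6v1e2 2 and 1, Atp6v1g3 1 in each library and Atp6v1g2 103 and 111. A single form there thus says little about osteoclast-like cells. All 541 and 914 subunit B UMIs came from Atp6v1b2, all 444 and 837 subunit E UMIs from Atp6v1e1, and all 511 and 1072 subunit G UMIs from Atp6v1g1. Of subunit e, Atp6v0e2 supplied 33.3% and 23.8% in Schwann-like cells, 18.4% and 21.0% in the class of pericytes or smooth muscle and 4.79% and 11.5% in osteoblast-like cells, against 0.176% and 0% (0 of 1007 UMIs) in osteoclast-like cells.

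Both accessory genes followed the pump. Atp6ap1, which helps to assemble the V0 sector, stood at 395 (343 to 453) and 1109 (1025 to 1199) in osteoclast-like cells, 2.64 (2.14 to 3.27) and 7.12 (6.07 to 8.36) times the level in macrophage-like cells. Atp6ap2, which is also known as the prorenin receptor, stood at 689 and 1140, and plasmacytoid dendritic cell-like cells were next with 383 in both libraries.

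The ion transport and sorting genes that serve the pump were divided. Slc4a2, the exchanger that brings chloride into the cell in return for bicarbonate, stood at 259 (217 to 307) and 549 (491 to 613) in osteoclast-like cells, and the next classes, B-like cells in library 1 and an unnamed cluster led by Spp1 in library 2, held 44.9 and 36.7 CPM. Snx10, a sorting protein needed for acid secretion, stood at 825 (748 to 907) and 1430 (1334 to 1531). Neutrophils and monocytes held part of it, with 326 and 106 CPM in mature neutrophil-like cells and 203 and 140 in monocyte-like cells.

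Clcn7, the chloride-proton exchanger that balances the charge of the pumped protons, stood at 143 (113 to 180) and 225 (188 to 268), against 48.9 and 53.5 in macrophage-like cells. Its partner Ostm1, the beta subunit of that exchanger, also lay above macrophage-like cells, at a ratio of 3.91 (2.22 to 7.10) and 6.05 (4.06 to 9.20), where that of Clcn7 was 2.93 (2.03 to 4.26) and 4.21 (3.13 to 5.71). Ostm1 stood at 73.6 (52.1 to 101) and 159 (129 to 196) in osteoclast-like cells, on 38 and 92 UMIs, and at 121 (104 to 140) and 121 (107 to 136) in megakaryocyte-like cells. Megakaryocyte-like cells were thus highest in library 1 and osteoclast-like cells in library 2, and plasmacytoid dendritic cell-like cells held 92.0 and 74.8.

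Car2, carbonic anhydrase II, makes the protons from carbon dioxide in osteoclasts and red cells. Its highest class was erythroid-like, at 3417 CPM (3300 to 3536) and 3778 (3727 to 3830), with NK-like cells next at 720 (646 to 800) and 882 (793 to 978). Osteoclast-like cells held 197 (161 to 240) and 196 (161 to 235), ranked 6 and 5 of the 24 classes, and 1 cell gave 27.5% and 25.7% of these UMIs. Free RNA carried 129 and 351 CPM of it, so the level in osteoclast-like cells lay above that of free RNA in library 1 and below it in library 2. Red cells were removed by lysis in the preparation, and the part of free red-cell RNA in the Car2 values was not tested.

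Both secreted enzymes were highest in osteoclast-like cells. Ctsk, the collagen-degrading protease cathepsin K, stood at 12049 CPM (11752 to 12352) and 31369 (30913 to 31829) in osteoclast-like cells. Among the named classes stromal cells came next, with 615 and 593 in fibroblast- or periodontal ligament-like cells, 584 and 499 in marrow stroma-like cells and 231 and 185 in osteoblast-like cells, where free RNA held 269 and 382. The level in B-like cells, which should lack it, was 30.3 and 19.9.

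Acp5, tartrate-resistant acid phosphatase, stood at 10017 (9745 to 10293) and 26587 (26168 to 27011). Macrophage-like cells held 550 and 273 CPM of Acp5 and T-like cells 46.1 and 327. Together with Atp6v0d2, these enzymes are among the 10 genes that lead the cluster by fold, so their place describes it and adds nothing to its name.

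Macrophage-like cells came next for 10 of the 19 genes that were highest in osteoclast-like cells in both libraries. How often they came next over all genes highest in osteoclast-like cells was not computed. Against macrophage-like cells alone, 25 of the 33 genes had enough UMIs to compare. Osteoclast-like cells were at least 2-fold higher in both libraries for 14 of the 25 (56%, where 12.8% of 7131 such genes were) and at least 2-fold lower for 1, Atp6v0a1 (4%, against 13.1%). The median ratio was 2.75 and 4.07 over the 25, and 1.30 and 1.00 over all 7131. Among the 16 subunit genes in this comparison the median was 1.77 and 2.88, and the 6 that passed 2-fold in both libraries were Atp6v0d2, Atp6v0c, Atp6v0e, Atp6v1g1, Atp6v1e1 and Atp6v1b2. Atp6v1a, Tcirg1, Atp6v0b, Atp6v1c1, Atp6v1d and Atp6v1f had ratios of 1.62 to 1.81 in library 1 and passed 2-fold in library 2. Osteoclast-like cells were also taken by clustering at a higher resolution, where ratios were followed for only some of the 25 genes. Of these, Tcirg1 and Atp6v1a in library 1 and Atp6v1h in library 2 fell slightly below macrophage-like cells. The count of 14 became 9 there, and 6 with cells taken one by one. The shares of all genes in these settings were not computed.

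**Figure D4:**
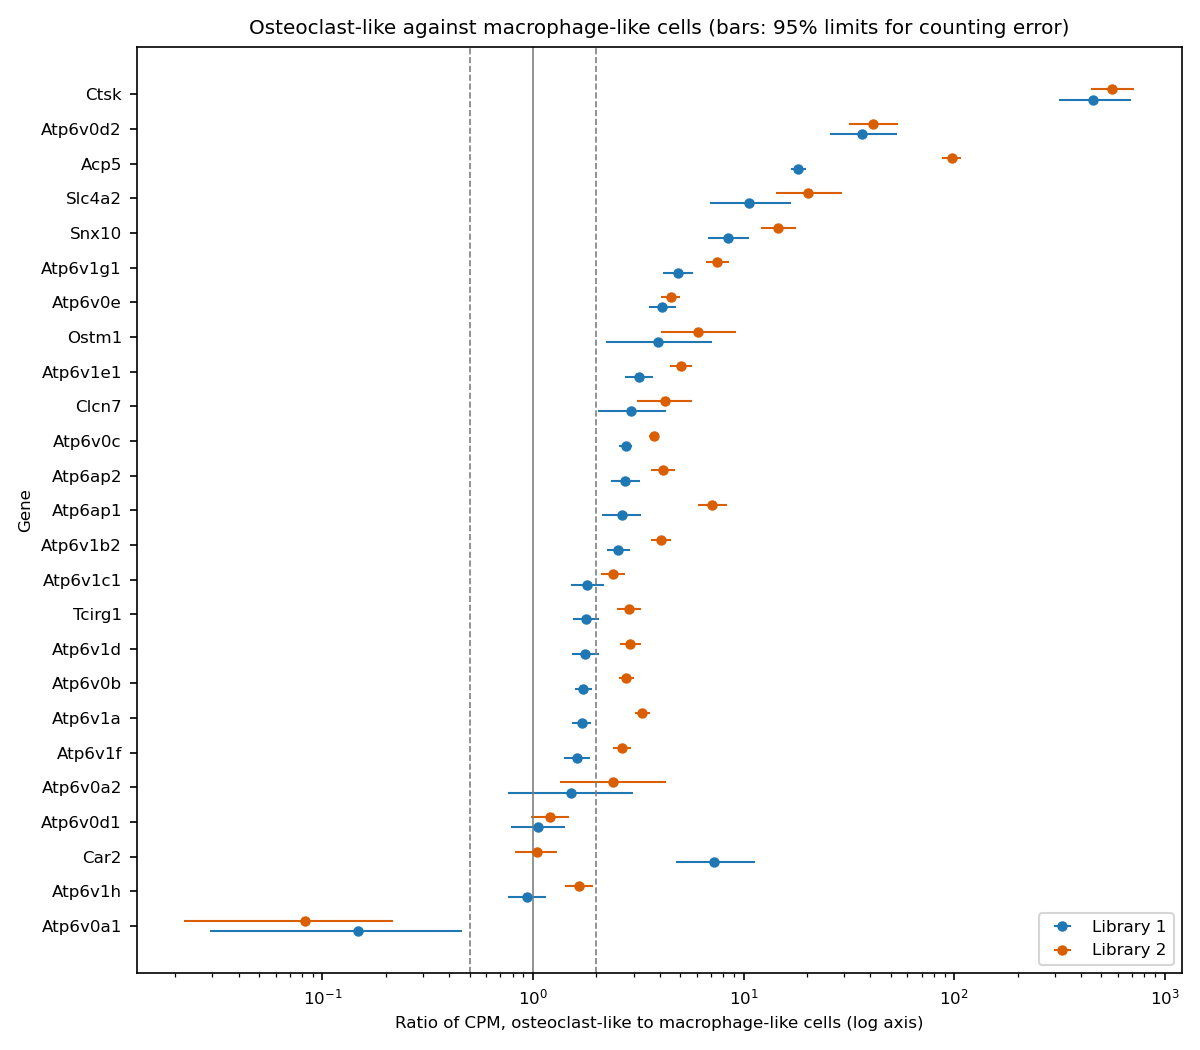
Ratio of the level in osteoclast-like to that in macrophage-like cells on a log axis for the 25 genes with enough UMIs, in library 1 (blue) and library 2 (orange), with 95% limits for counting error; the solid line marks a ratio of 1 and the dashed lines a 2-fold difference. Ctsk, Acp5, Atp6v0d2, Slc4a2 and Snx10 lie farthest to the right, Atp6v0d1 lies near 1 and Atp6v0a1 below 0.5.

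Single cells were also scored for having a UMI of a gene. After each cell was thinned to 1500 UMIs, with 13 and 10 shallower osteoclast-like cells left out, Atp6v0d2 was seen in 24 of 36 cells of library 1 (66.7%, 49.0 to 81.4) and 21 of 25 of library 2 (84.0%, 63.9 to 95.5). Without thinning these were 75.5% and 91.4%. Among macrophage-like cells 2 of 121 and 12 of 174 thinned cells had a UMI of it, and among B-like cells, which should lack it, 1 of 309 and 0 of 439, where the exact interval reaches 0.837%. Median depth before thinning was 3691 and 3764 UMIs in osteoclast-like, 7473 and 5669.5 in macrophage-like and 1867 and 1916 in B-like cells.

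Tcirg1 was seen in 75.0% and 56.0% of thinned osteoclast-like cells, 39.7% and 30.5% of macrophage-like cells and 7.12% and 10.7% of B-like cells. Clcn7 was seen in 13.9% and 40.0% of osteoclast-like cells (40.8% and 54.3% without thinning), so most single cells at this depth showed no UMI of it. Car2 was seen in 25.0% and 24.0% of osteoclast-like cells, against 4.85% and 5.47% of B-like cells. Ostm1 was seen in 16.7% and 8.00% of osteoclast-like cells, and the second of these was close to the 8.20% of B-like cells.

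The levels in osteoclast-like cells differed between the libraries. Of 24 measured members of the machinery with at least 20 UMIs in this class over both libraries, 23 were higher in library 2, all but Car2, where 43.4% of 6331 such genes were. The median ratio of library 2 to library 1 was 1.74 over the 24 and 0.925 over all. When each cell counted alike, 17 of the 24 were higher in library 2, where 45.1% of all such genes were, and the summed subunit level was 18080 and 22003 CPM. Leaving out the largest cell of each library gave 24 of 24, and the share of all genes was not computed for that setting. The mature neutrophil markers in the class, 2735 CPM in library 1 and 1376 in library 2, moved the other way, and their part was not tested. With 1 pool per library and no label that ties a library to force or control, this is a description of these libraries.

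Other genes that work with the machinery were looked up from 4 lists. Their counts are to be read against the shares of all genes given earlier, which were 3.9% for highest in osteoclast-like cells, and 12.8% and 13.1% for 2-fold higher and lower than in macrophage-like cells. Of 12 factors that assemble or regulate the V-ATPase, 9 were measured. None of the 9 was highest in osteoclast-like cells in both libraries, which at a share of 3.9% says little about so short a list. Against macrophage-like cells 2 of the 9 were at least 2-fold higher and 1, Ncoa7, at least 2-fold lower. The list's median ratio was 1.33 and 1.28. The largest were Oxr1 at 94.9 and 116 CPM (ratios of 3.15 and 3.08), a gene whose highest class was basophil- or mast-like, Dmxl1 at 211 and 170 (2.49 and 2.72), which was highest in B-like cells, and Ccdc115 (2.06 and 1.38).

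The chloride, bicarbonate and carbonic anhydrase relatives of Clcn7, Slc4a2 and Car2 were mostly too low to compare. Of 29 listed, 17 were measured and 0 were highest in osteoclast-like cells in both libraries, again beside 3.9% of all genes. In the 6 with enough UMIs against macrophage-like cells, 0 were at least 2-fold higher, and 1, Car13, was lower at 17.4 and 8.67 against 92.1 and 49.0 CPM. Ranked by the lower of the 2 libraries, the largest ratios were those of the exchangers Clcn3 (2.20 and 1.42) and Clcn5 (1.03 and 0.852) and of the bicarbonate transporter Slc4a7 (1.26 and 0.663).

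The 20 measured lysosomal genes differed from macrophage-like cells in both directions. Hexa, a lysosomal glycosidase gene, was 2.33 and 6.12 times as high as in macrophage-like cells, and Npc2, a cholesterol carrier, 2.25 and 3.58 times. Lower were the proteases Ctsc, Ctsh and Ctss, the phosphatase Acp2, and the membrane proteins Lamp1, Lamp2 and Scarb2. Lamp1, a major lysosomal membrane glycoprotein, was at 168 and 78.0 CPM against 996 and 994, and Lamp2 at 67.8 and 72.8 against 299 and 294. In all, 3 of the 20 were at least 2-fold higher, a share near the 12.8% of all genes, and 7 at least 2-fold lower, beside 13.1% of all genes, with a median of 0.686 and 1.20. Ctsa, Cd68, Npc2 and Hexa were highest in osteoclast-like cells.

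Genes of vesicle traffic and control of resorption were more often higher than lower. Of 16 listed and measured, 4 were highest in osteoclast-like cells (Mitf, Src, Slc9b2 and Slc37a2, beside 3.9% of all genes), and of 14 compared with macrophage-like cells 6 were at least 2-fold higher and 0 lower, beside 12.8% and 13.1% of all genes, with a median of 2.05 and 2.03. Slc9b2, a sodium-proton antiporter gene, stood at 441 and 712 CPM on 228 and 411 UMIs, where macrophage-like cells had 3 and 5 UMIs, a ratio of 156 (52.9 to 764) and 189 (80.4 to 586). Slc37a2, a sugar-phosphate transporter gene, stood at 697 and 1199, a ratio of 7.41 and 15.02. Like Acp5, Slc9b2 and Slc37a2 are among the genes that lead the osteoclast-like cluster by fold, so their place describes that cluster. Rab38, a small GTPase gene, had 23 and 72 UMIs against 0 and 4, so the exact lower limit of the ratio was 11.8 in library 1, and the ratio was 41.4 (15.5 to 156) in library 2. Slc9b2 and Rab38 thus had enough UMIs to compare mainly through osteoclast-like cells. Mitf, whose protein binds the M-box, stood at 65.8 and 52.0 CPM, against 26.3 and 26.4 in macrophage-like cells.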

How the data were processed

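The authors deposited unfiltered UMI counts per gene and barcode for 2 libraries. FastQC 0.11.9 and the builds GRCh38 and mm10 stand in the submitters' processing notes, without a role. The aligner and the gene annotation: not given in the sources used here. Features without a gene symbol were left out. They held 0.602% and 0.431% of the UMIs.

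Cells were barcodes with at least 768 UMIs in library 1 and 962 in library 2 (the steepest point of the rank curve), 200 genes and at most 20% mitochondrial UMIs. Scrublet marked only 2 and 3 doublets, so the top 5% by score were taken out (500 and 620 cells), and doublets may remain. Counts were clustered in scanpy 1.11.5 over both libraries without batch correction (2000 variable genes, 30 components, 15 neighbours, Leiden resolution 1.0). Variable genes could not be any of the 33 genes, nor a gene of the 4 lists that is no marker, nor mitochondrial, ribosomal or sex-linked genes. Clusters were named from 28 marker lists if at least 3 markers and 50% of the list were raised 3-fold and at least 1 was among the 10 leading genes. No cluster was osteoclast-like at first, so the cluster with the highest mean share of the osteoclast markers (699 cells) was clustered again. Each marker counted alike in that mean. That step and the limits for naming were chosen after seeing the data. Ranked classes had at least 15 cells in both libraries.

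The genes and lists were chosen with earlier results of these data known. The text accounts for all 33 genes and names, from each other list, the 3 genes with the largest lower ratio over the libraries, and others after their values were seen. Of the lysosomal list, 1 gene chosen by that rule is not reported here. Cells are not replicates and each library is 1 pool, so there are no tests. Levels rest on UMIs added up over the cells of a class in each library. Levels have exact Poisson, shares exact Clopper-Pearson and ratios exact conditional binomial intervals, and counts of 0 were set to 3 for ratios. The calculation of ratios was tested on simulated data.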

Additional observations from a re-analysis of the deposited data

How the results depend on the processing

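No paired analysis was possible because the labels put neither library in a group. Summed subunit levels of osteoclast-like cells, 14678 and 24420 CPM, became 18082 and 24997 with cells of at least 2000 UMIs, 18080 and 22003 as a mean over cells, and 16583 and 26893 with totals that leave out the 50 most abundant genes. The level in library 2 became 22075 without doublet removal and 23885 with the 33 genes among the variable genes, and that in library 1 became 15079 without the largest cell, an alternative added after seeing the data.

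Most values moved when the osteoclast-like cells were defined in another way. Leiden resolution 2.0 gave 149 and 156 such cells, and at least 3 osteoclast markers cell by cell gave 123 and 112, of which 35 and 26 were in the class described. Summed levels became 8246 and 12174 at resolution 2.0 and 5405 and 7957 cell by cell. Tcirg1 shares became 86.3% and 88.4% at resolution 2.0 and 81.2% and 82.0% cell by cell. Atp6v0d2 shares became 85.3% and 85.9%, then 72.1% and 77.2%, and 92.2% in library 2 as a mean over cells. The 14 genes at least 2-fold above macrophage-like cells became 9 at resolution 2.0 and 6 cell by cell. The 12 genes at least 2-fold above the next class became 6, then 4, and 5 with classes of at least 50 cells, where osteoclast-like cells are not ranked. The 19 genes highest in osteoclast-like cells became 8 cell by cell. For these counts the shares of all genes were computed in the main setting only, so whether other genes moved alike is not known.

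The log2 ratios to macrophage-like cells were followed through 10 alternative settings for only 14 genes. Atp6v0b, Atp6v1c1, Atp6v1d and Atp6v1f, with ratios of 1.62 to 1.81 in library 1, were not among them. Of the 280 log2 ratios followed, 9 changed sign although their interval in the main setting excluded a ratio of 1. Ratios whose main interval included 1 also changed sign in some settings but are not among the 9. They were those of Atp6v0d1 in both libraries, Car2 in library 2 and Atp6v1h in library 1. Among the 9, the log2 ratios of Tcirg1 and Atp6v1a in library 1 became -0.037 and -0.10 at resolution 2.0, and that of Atp6v1h in library 2 -0.27. Cell by cell, Tcirg1 became -0.82 and -0.19, Atp6v1a -0.81 and -0.056, Atp6v1h in library 2 -0.81 and Clcn7 in library 1 -0.081. These definitions take in cells outside the class described, and the cause was not tested. With 49 and 35 osteoclast-like cells from 1 pool per library, the intervals hold no variation between mice.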
